A study of Rattus norvegicus with 125 samples.

Results

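The AP-1 transcription factors measured here were 6 genes, Fosb, Fosl1, Fosl2, Jun, Junb and Maff. They were taken by name, as the genes to which the array's annotation gives a probe set with 1 of these symbols. They had 9 probe sets and stood among 13438 genes measured with 1 symbol. Fosl2 had 2 probe sets, Jun had 3 and each of the others had 1, and in each tissue the probe set of highest mean signal stood for the gene. Fos, the founding member of the family, was not analysed here.

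AP-1 is a dimer of leucine zipper proteins, usually a Jun protein with a Fos protein. Many of its genes are immediate early genes, which MAP kinases, serum response factor and CREB switch on within minutes of a stimulus, without new protein synthesis. JUN activates most strongly, JUNB can weaken that activity, FOSB, FRA-1 (Fosl1) and FRA-2 (Fosl2) partner the Jun proteins, and MAFF is a small Maf protein without an activation domain that pairs with NRF2 and its relatives. In kidney and heart, AP-1 genes are known to respond to ischaemia, stretch and toxic injury.

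Adult male Sprague-Dawley rats had breathed phosphine (PH3), a gas used against stored-grain pests that blocks cytochrome c oxidase. The exposure was whole-body, with 387 ppm given over 40 min (15480 ppm×min). Air rats were the controls, all rats were killed under ketamine and xylazine, and times count from the exposure. PH3 and Air were compared in brain, heart and kidney at 1, 3, 6 and 24 h, in liver at 6 h and in lung at 3 h, 24 h and 1 week. Groups had 4 rats, except PH3 heart at 24 h, PH3 liver at 3 h and PH3 lung at 1 week with 3, and Air heart at 24 h and Air lung at 3 h with 2. The tissues came from 48 rats, many of which gave several, so the tissues' results are not independent, and blood and Air liver at 3 h were not analysed here. Levels are log2 signals, on which 1 unit is a doubling. A change is the PH3 mean minus the Air mean on that scale ± its standard error (SE) in the limma fit, and is called where its adjusted p was under 0.05. The SE and p-values rest on the spread between rats, pooled over all exposure and time groups in the fit. They do not measure the spread of the 2 compared groups alone.

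Arrays of a group correlated at 0.951 to 0.994, and 0 were identical. Of the measured marker genes that define an organ, 4 of 4 for heart, 4 of 4 for kidney and 5 of 5 for lung were higher in their own organ than in any other. For brain and for liver 4 of 5 were, the exceptions being Syt1 in brain and Ttr in liver. The arrays were made from whole powdered organ, so fewer cells of a type and less RNA per cell cannot be told apart.

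The 250 bases upstream of the annotated start are shown for Maff, the member called most often, and Junb, which was called in 0 comparisons. They are RefSeq sequence of build GRCr8, and capitals mark matches on either strand to the cyclic AMP response element TGACGTCA, its core TGACG, the AP-1 site TGACTCA, the CArG box bound by serum response factor and the TATA box TATAAA. Both windows lie on the plus strand, at chr7:112792537-112792786 for Maff and chr19:40080876-40081125 for Junb.
Maff: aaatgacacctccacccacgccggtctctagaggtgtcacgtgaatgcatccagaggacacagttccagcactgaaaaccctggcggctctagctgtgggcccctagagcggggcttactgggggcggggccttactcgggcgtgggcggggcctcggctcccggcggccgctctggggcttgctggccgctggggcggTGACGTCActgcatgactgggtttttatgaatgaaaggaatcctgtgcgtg
Junb: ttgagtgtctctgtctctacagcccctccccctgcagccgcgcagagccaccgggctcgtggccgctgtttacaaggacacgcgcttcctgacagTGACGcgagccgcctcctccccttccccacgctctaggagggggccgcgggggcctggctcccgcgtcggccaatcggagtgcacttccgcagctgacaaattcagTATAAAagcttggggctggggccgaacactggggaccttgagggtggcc

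The Maff window held the complete element 51 to 44 bases before the start, a match found in 1.59% of 33469 promoter windows of the same length. The element reads the same on both strands and so holds its core on each, and the core occurs in 18.2% of windows. The Junb window held the core 155 to 151 bases before the start and a TATA box, found in 12.9%, at 49 to 44 bases. The Fosl1 window held the core at 148 and at 84 bases before the start, and that of Fosl2 had none of these letters. The AP-1 site occurs in 4.05% of windows and the CArG box in 1.5%, and 0 of these 4 members' windows held either. Jun had no entry, and the Fosb window lies inside the annotated gene and was not used.

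Across 16 comparisons the members gave 96 changes, of which 4 were called higher in PH3 and 0 lower by limma. Of the 215008 changes of all genes, 0.146% were called higher and 0.107% lower. They were Fosb and Maff in kidney at 1 h, Maff again in kidney at 3 h and Maff in the 6 h heart. At an unadjusted p under 0.05, 12 changes were higher and 1 was lower, against 3.31% and 4.22% of all genes' changes. Of the 96, 62 lay above 0, as 47.4% of all did. In 13 changes every PH3 array lay above every Air array, and Maff accounted for 7 of these and Fosb for 4. Over all genes 3.3% of changes were of this kind. Fosl1, Fosl2, Jun and Junb were called in 0 comparisons.

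**Figure D1:**
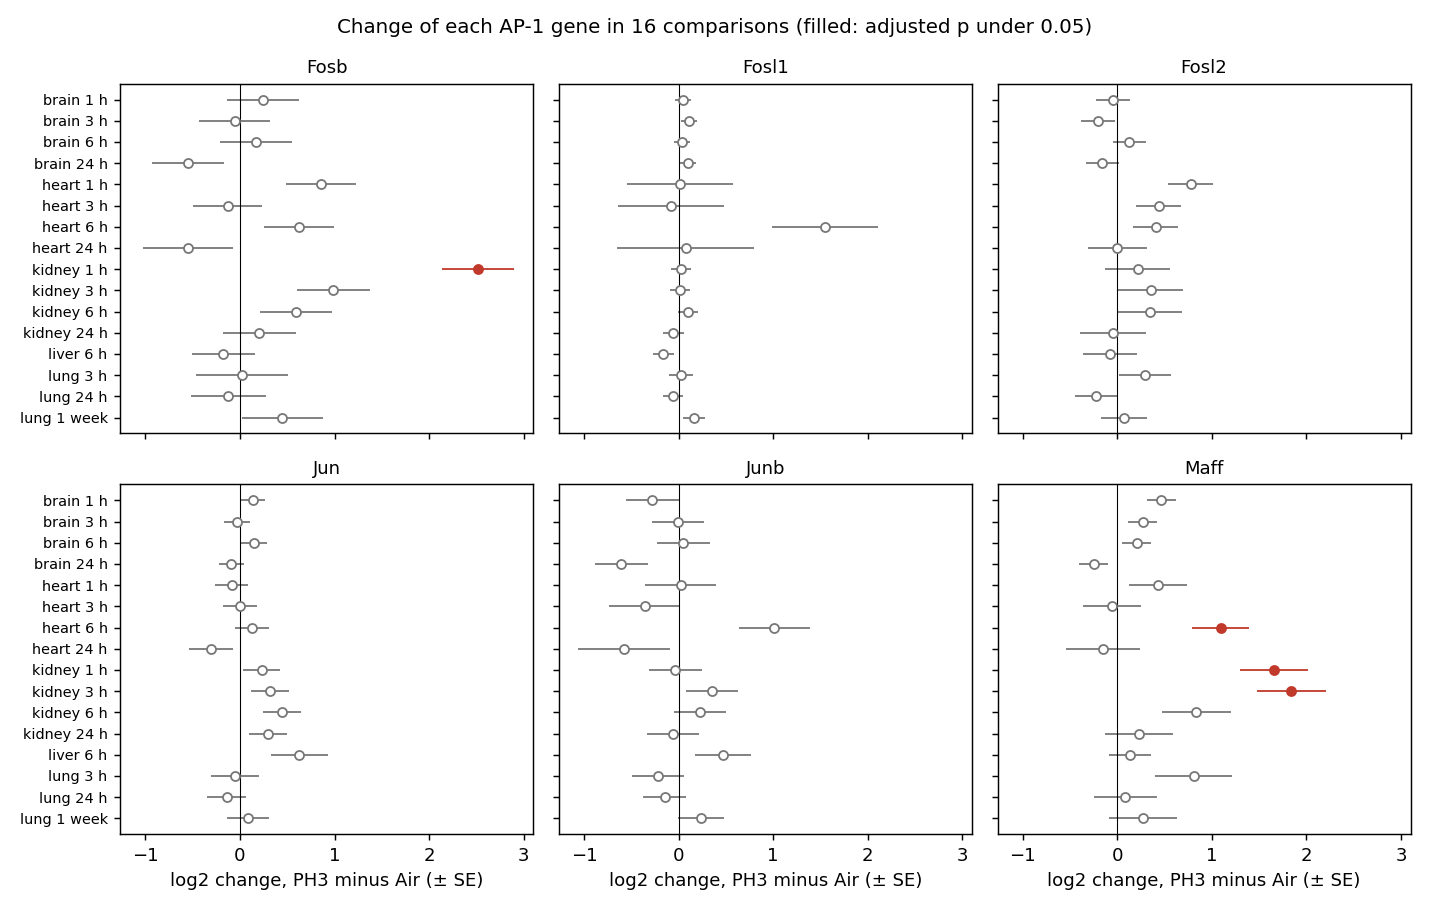
Change of each AP-1 gene in each comparison, as log2 PH3 minus Air (horizontal) ± SE, with 1 panel per gene and 1 row per tissue and time; filled points had an adjusted p under 0.05 in limma. The filled points are Fosb in kidney at 1 h (2.52) and Maff in kidney at 1 h (1.65), kidney at 3 h (1.84) and heart at 6 h (1.09).

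In kidney at 1 h, the Fos family gene Fosb and the small Maf gene Maff rose, as 2 of 6 members in a comparison where 0.223% of all genes were called. Fosb, which encodes a Fos protein that partners JUN, had signals of 8.85, 6.85, 7.33 and 5.53 in PH3 rats 98, 109, 115 and 116, against 4.57, 4.31, 4.66 and 4.97 in the Air rats. All PH3 kidneys lay above all Air kidneys, with rat 98 highest and rat 116 closest to Air. The change was 2.52 ± 0.38, a 5.72-fold rise (adjusted p = 0.0011 by limma). Its rank by p among the 13438 genes was 5. Fosb signals in Air kidneys were low, with a median percentile of 36.3 among the probe sets of an array.

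Maff signals were 9.05, 8.63, 8.86 and 7.59 in the same PH3 kidneys, against 6.33, 7.30, 6.80 and 7.09 in Air kidneys. Again the groups did not overlap and rat 116 was the lowest of the PH3 rats. The change was 1.65 ± 0.36, 3.15-fold (adjusted p = 0.0422). That call was kept in 1 of 8 fits that left out 1 array, the fit without PH3 rat 116, and the adjusted p was at most 0.181, while Fosb was called in 8 of 8.

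The Jun genes were not called at 1 h. The change of Jun, whose protein is the strongest activator of the family, was 0.23 ± 0.20, with 95% limits of -0.18 and 0.64. That of Junb was -0.03 ± 0.28, with limits of -0.60 and 0.53. In both genes PH3 and Air kidneys overlapped. Fosl2 (0.22 ± 0.34) and Fosl1 (0.02 ± 0.11) were not called either. PH3 rats 98 and 115 had the highest Fosl2 signals of these 8 arrays, 6.46 and 6.18, and rats 109 and 116 had 5.32 and 5.09, against 5.16 to 5.83 in Air.

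At 3 h in kidney, Maff rose and was the 1 member called, where 0.104% of all genes were. Its signals were 6.84, 7.68, 8.92 and 7.77 in PH3 rats 105, 111, 122 and 152, against 5.88, 6.46, 5.20 and 6.30 in Air rats, and the groups did not overlap. The change was 1.84 ± 0.36, 3.58-fold (adjusted p = 0.0242). It was called in 2 of 8 fits without 1 array, and without PH3 rat 122 the change was 1.47 (adjusted p = 0.235). On the array of that rat the 4 kidney markers averaged 11.75, the lowest of the 8 arrays, which otherwise held 12.03 to 12.31, and the part of this in the result was not tested.

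Fosb at 3 h was again higher on each PH3 array, at 4.53, 4.85, 5.74 and 5.87, against 4.13, 4.34, 4.19 and 4.38 in Air kidneys. The change of 0.99 ± 0.38 was not called (unadjusted p = 0.0158, adjusted p = 0.564). Non-overlap of this kind, with PH3 above, was seen for 2 members and for 1.61% of all genes. Jun (0.32 ± 0.20), Junb (0.35 ± 0.28) and Fosl2 (0.36 ± 0.34) were above 0 without being called.

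**Figure D2:**
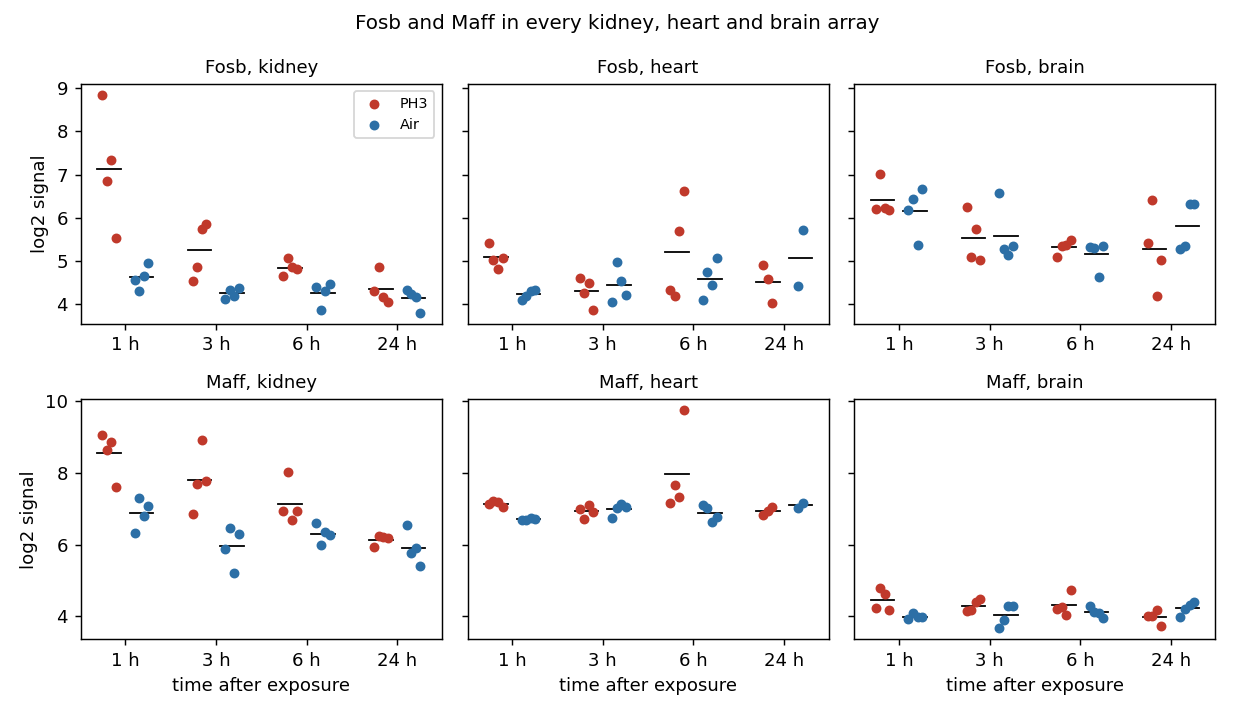
log2 signal of Fosb (top) and Maff (bottom) on every array of kidney, heart and brain, by hours after exposure, with PH3 (red) left of Air (blue); each point is a rat and black lines are group means. PH3 kidneys stand above Air kidneys in both genes at 1, 3 and 6 h. The heart of PH3 rat 141, at 6 h, has Maff at 9.74.

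By 6 h in kidney 0 of 6 members were called by limma, against 0.127% of all genes, and 2 members had an unadjusted p under 0.05. Maff was at 6.93, 8.02, 6.68 and 6.93 in PH3 rats, against 6.60, 5.99, 6.35 and 6.26 in Air rats, a change of 0.84 ± 0.36 (adjusted p = 0.545). Jun was at 10.04, 10.24, 10.85 and 10.05 in PH3 rats, against 9.95, 9.96, 9.77 and 9.73 in Air rats, a change of 0.45 ± 0.20 (adjusted p = 0.571). The Jun change was 0.26 without PH3 rat 140, and the Maff change 0.54 without PH3 rat 134. Jun, Maff and Fosb (0.59 ± 0.38) each had all PH3 arrays above all Air arrays, as did 3.56% of all genes. The 3 measured skeletal muscle markers also averaged higher in PH3 kidneys, at 3.75 to 4.10, against 3.44 to 3.54 in Air kidneys, with 0 of 3 called, and their part in these values was not tested. Those marker levels are low, below the array medians of 5.08 to 5.52. At 24 h 0 of 6 members were called, against 0.0149% of all genes, and 0 had an unadjusted p under 0.05. The changes were then 0.21 ± 0.38 for Fosb and 0.23 ± 0.36 for Maff.

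The differences between times were tested directly. In kidney the F test over the changes at 1, 3, 6 and 24 h gave Fosb an unadjusted p of 0.00122 (adjusted p = 0.605) and Maff one of 0.0134. After adjustment 0 of 6 members were called, and 0% of all genes were. In brain, heart and lung 0 members were called as well, against 0%, 0.268% and 0% of all genes. Unadjusted, 666 genes in kidney, 571 in brain, 1342 in heart and 433 in lung had a p under 0.05. Of the 24 tests of members, 5 had an unadjusted p under 0.05, the others being Maff in brain (0.0192) and in heart (0.0427) and Junb in heart (0.0423).

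Other genes of the pathway were listed by role. In kidney at 1 h, 1 of 10 measured AP-1 relatives was called higher, Atf3 (2.52 ± 0.41), which encodes a stress-induced partner of the Jun proteins. Of 26 other immediate early genes 2 rose, the nuclear receptors Nr4a3 (1.60 ± 0.22) and Nr4a1 (1.40 ± 0.27). Errfi1 (0.62 ± 0.13), whose protein inhibits the EGF receptor, was the 1 of 10 feedback genes that rose. Of 21 MAP kinase and SRF inputs and 29 AP-1 target genes 0 were called, and the list medians were 0.11 and 0.02, beside -0.06 for all genes. The inputs' mean level of 6.80 to 6.90 in PH3 kidneys lay above the 6.67 to 6.78 of Air kidneys. Atf3 and Nr4a3 were called in 8 of 8 fits without 1 array, Nr4a1 in 6 and Errfi1 in 2. At 3 h Errfi1 (0.69 ± 0.13, called in 4 of 8 such fits) was called among the feedback genes and 0 genes of the other lists were, though 24 of 26 immediate early genes lay above 0, with a median of 0.31 beside 0.01 for all genes. At 24 h Errfi1 (0.95 ± 0.13, called in 8 of 8) was again the only listed gene called, and at 6 h there was none.

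Cell type markers were set beside these kidney results. At 1 h the skeletal muscle gene Acta1 was called higher, 1 of 3 measured genes of that list, whose mean level was 3.72 to 4.28 in PH3 kidneys and 3.46 to 3.81 in Air kidneys. Such list levels are low, below the array medians of 5.08 to 5.52. The neutrophil, macrophage, endothelial and hepatocyte lists overlapped between PH3 and Air at 1 and 3 h. Hepatocyte markers averaged 10.42 on the 3 h array of PH3 rat 152, against 6.64 to 7.21 on the other PH3 arrays and 6.68 to 7.88 on Air arrays. Without that rat the Maff change was 1.85 (adjusted p = 0.0835). As a sign of RNA integrity, the actin probe sets at the 3' end exceeded those at the 5' end by 2.97 to 3.47 in PH3 and 2.94 to 3.76 in Air kidneys at 1 h, and overlapped at 3 h too.

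Heart at 6 h had the third rise of Maff, as the 1 of 6 members called where 2.7% of all genes were. Its signals were 7.15, 7.64, 7.33 and 9.74 in PH3 rats 128, 134, 140 and 141, against 7.09, 7.01, 6.64 and 6.76 in Air rats. The groups did not overlap, but rat 141 stood far above the other PH3 rats. The change was 1.09 ± 0.30, 2.13-fold (adjusted p = 0.0476). Without rat 141 it was 0.50 ± 0.14 (adjusted p = 0.0829), and 3 of 8 fits without 1 array kept the call.

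Rat 141 also held the highest heart signals of 4 other members at 6 h. Fosl1, whose protein FRA-1 is found at low levels in resting tissue, was at 4.40, 4.77, 4.79 and 9.25 in PH3 hearts, against 4.52, 4.13, 4.17 and 4.20 in Air hearts. Its change of 1.54 ± 0.56 was not called (adjusted p = 0.148) and was 0.40 without rat 141. In a fit of brain, heart and kidney together it was called, with the rat as a block (adjusted p = 0.0025) and without it (0.00251). Junb, at 7.01, 7.13, 7.76 and 9.35 in PH3 hearts, against 6.66, 7.22, 6.71 and 6.61 in Air hearts, had a change of 1.01 ± 0.38 (adjusted p = 0.161), or 0.50 without rat 141. In the brain, kidney and liver of the same rat Fosl1 was at 3.75, 4.13 and 3.75, the lowest of the PH3 rats in brain and liver at 6 h. Its Maff (4.74), Fosb (5.48) and Jun (9.08) signals were the highest of the 6 h PH3 brains. In kidney and liver no member was highest in rat 141.

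Fosl2 was at 5.84 in the heart of rat 141 and at 4.24 to 4.33 in the other PH3 hearts, against 4.18 to 4.36 in Air hearts (change 0.41 ± 0.24, adjusted p = 0.458). Its second, dimmer probe set gave 3.93, 4.02, 4.09 and 4.55 in PH3 hearts, against 3.82, 3.61, 3.67 and 3.45 in Air hearts, without overlap. With all probe sets tested, that one was called, with a change of 0.51 ± 0.13 (adjusted p = 0.0339). The probe sets of Fosl2 thus gave different calls. Fosb was at 5.71 and 6.63 in PH3 rats 140 and 141 and at 4.34 and 4.19 in rats 128 and 134, against 4.10 to 5.08 in Air hearts (change 0.62 ± 0.37). Jun was highest in rat 140, at 11.11 (change 0.13 ± 0.18).

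**Figure D3:**
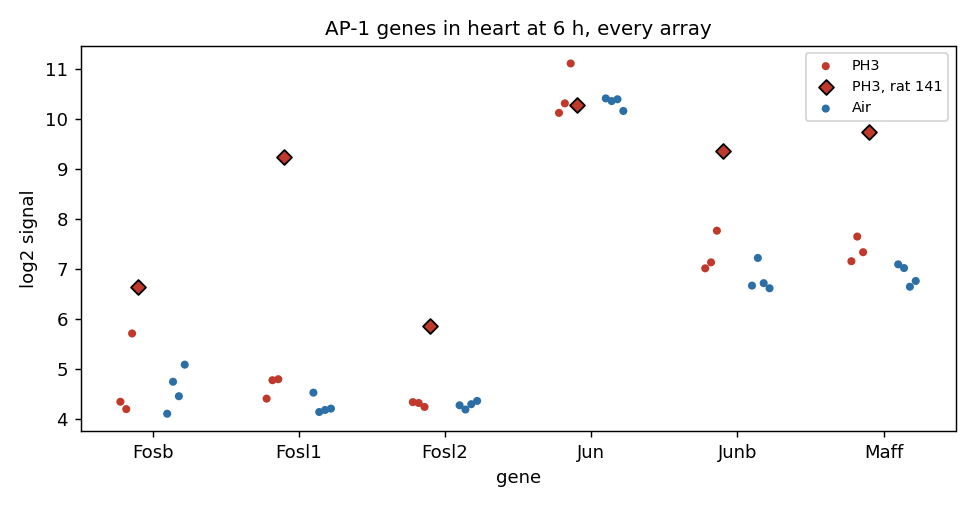
log2 signal of the 6 AP-1 genes (horizontal) on every heart array at 6 h, with PH3 (red) left of Air (blue) and PH3 rat 141 as diamonds. Rat 141 lies above all other arrays in Fosb, Fosl1, Fosl2, Junb and Maff, and not in Jun, where it is at 10.28.

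In the same hearts, 4 of 26 other immediate early genes rose, Egr2 (1.92 ± 0.46), Nr4a3 (1.39 ± 0.33), Ier5 (1.13 ± 0.16) and Gadd45a (0.92 ± 0.21). Of 29 genes known as AP-1 targets 3 rose, the monocyte chemokine Ccl2 (3.33 ± 0.40), the metallothionein Mt2A (2.67 ± 0.46) and the protease inhibitor Timp1 (2.21 ± 0.35). The phosphatase gene Dusp5 (1.08 ± 0.27), 1 of 10 feedback genes, and the kinase gene Map2k1 (0.35 ± 0.10), 1 of 21 inputs, rose too, and 0 of 10 AP-1 relatives did. The immediate early genes had a median change of 0.56 and the targets one of 0.27, beside -0.01 for all genes. Without rat 141, Ier5, Gadd45a, Ccl2, Mt2A and Timp1 were still called, at 2 of 26 and 3 of 29, and 0 of the feedback genes and inputs were. The medians were then 0.27 and 0.16. The endothelial markers averaged 9.63 to 9.83 in PH3 hearts and 9.48 to 9.61 in Air hearts, 0 of 7 of them were called, and their part in the results was not tested. Of 8 macrophage markers C1qb (0.56) and Lyz2 (0.36) were called, though the list's mean level of 8.09 to 8.42 in PH3 hearts and 8.17 to 8.25 in Air hearts overlapped.

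At 1 h in heart 0 of 6 members were called by limma, against 0.0521% of all genes, and 2 had an unadjusted p under 0.05. Fosl2 was at 4.96, 4.40, 4.43 and 4.64 in PH3 hearts, against 4.05, 4.08, 3.80 and 3.38 in Air hearts, a change of 0.78 ± 0.24 (unadjusted p = 0.00301, adjusted p = 0.378). Its other probe set gave 0.15 ± 0.13. Fosb was at 5.43, 5.04, 4.82 and 5.06 in PH3 hearts, against 4.11, 4.18, 4.30 and 4.34 in Air hearts (0.86 ± 0.37, unadjusted p = 0.027, adjusted p = 0.562). Maff was at 7.04 to 7.20 in PH3 hearts and at 6.67 to 6.75 in Air hearts (0.43 ± 0.30, adjusted p = 0.739). So 3 of 6 members had all PH3 hearts above all Air hearts, against 1.9% of all genes. Fosb and Fosl2 signals are low in heart, with median percentiles over all Air hearts of 37.4 and 27.7 among the probe sets of an array.

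Markers that define liver also lay higher in these PH3 hearts, averaging 5.40 to 7.29, against 4.86 to 5.29 in Air hearts. The 8 hepatocyte markers overlapped, at 4.13 to 6.71 in PH3 hearts and 3.93 to 4.20 in Air hearts, with 8 of 8 changes above 0. In either list 0 genes were called. In Air livers Fosb, Fosl2 and Maff averaged 4.17, 4.64 and 4.53. The PH3 heart with most liver marker signal was that of rat 116, and the part of these markers in the results was not tested. Klf4 (0.63 ± 0.12), which codes for a zinc finger factor, was the 1 of 26 other immediate early genes called, in 1 of 8 fits without 1 array. Of these 26 genes 22 lay above 0, with a median of 0.33 beside -0.02 for all genes. Their mean level was 7.49 to 7.94 in PH3 hearts and 7.34 to 7.42 in Air hearts, without overlap. At 3 h in heart 0 of 6 members were called, against 0.238% of all genes, and 0 had an unadjusted p under 0.05. The cyclin gene Ccnd1 fell by 0.85 ± 0.14 and was the 1 of 29 AP-1 targets called. At 24 h, with 3 PH3 and 2 Air rats, 0 members were called, and 0% of all genes were. Unadjusted, 0 members and 405 genes had a p under 0.05. Junb was at 6.63, 6.69 and 5.97 in PH3 hearts then, against 6.86 and 7.16 in Air hearts, without overlap (-0.58 ± 0.49, unadjusted p = 0.244). With so few arrays, 21.4% of all genes did not overlap.

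In brain 0 of 6 members were called at 1, 3, 6 and 24 h, against 0.00744%, 0.00744%, 0.00744% and 0.0298% of all genes. Unadjusted, 2 members passed in limma, 1 of them at 1 h and 1 at 24 h. At 1 h Maff was at 4.23, 4.80, 4.63 and 4.17 in PH3 brains, against 3.92, 4.09, 3.98 and 3.99 in Air brains. The groups did not overlap, as for 1.51% of all genes with PH3 above, and the change was 0.46 ± 0.15 (unadjusted p = 0.00519, adjusted p = 0.907). These are low signals, near those of Maff in liver. At 24 h Junb was at 6.42, 6.83, 5.37 and 6.52 in PH3 brains, against 6.68, 6.48, 7.28 and 7.12 in Air brains, and its change of -0.60 ± 0.28 was the 1 negative one with an unadjusted p under 0.05 (adjusted p = 0.38). Beside it, 8 markers of cerebellum and brain stem averaged 7.72 to 8.82 in PH3 brains and 4.19 to 7.86 in Air brains, with 2 of 8 called higher. The 7 striatum markers averaged 6.29 to 8.76 in PH3 brains and 8.12 to 9.44 in Air brains, with 0 called and 0 of 7 changes above 0, and the part of either list in the result was not tested. PH3 rat 91 had the lowest Junb and striatum levels, and without it the Junb change was -0.30 (adjusted p = 0.969). Of the listed pathway genes, Mt2A at 6 h (1.49 ± 0.23) was called in brain, in 5 of 8 fits without 1 array.

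In liver at 6 h 0 of 6 members were called by limma, against 0.238% of all genes, and 0 had an unadjusted p under 0.05. Jun was at 9.46, 9.98, 11.19 and 9.64 in PH3 livers, against 9.70, 9.66, 9.05 and 9.35 in Air livers, with rat 140 highest. The change was 0.63 ± 0.30 (adjusted p = 0.372), and the other probe sets of Jun gave 0.73 ± 0.22 and 0.89 ± 0.37 (adjusted p = 0.186 and 0.362 over all probe sets). Junb, at 8.18 in rat 140 and 7.58 in rat 141, had a change of 0.47 ± 0.30. Rat 140 thus had the highest liver signal in both Jun genes, and it also had the highest Jun signal of the 6 h PH3 hearts and kidneys. Among the 6 h PH3 brains the highest Jun signal was that of rat 141, at 9.08. Between PH3 livers at 6 h and at 3 h, 0 of 6 members were called, and 0% of all genes were, with 1145 at an unadjusted p under 0.05. Jun was at 9.15, 8.91 and 9.59 at 3 h, lower than at 6 h by 0.85 ± 0.33 (unadjusted p = 0.0222, adjusted p = 0.512).

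In lung at 3 h 0 of 6 members were called, against 0.298% of all genes. Maff was at 8.48, 7.37, 7.73 and 7.22 in PH3 lungs, against 6.64 and 7.14 in Air lungs (0.81 ± 0.41, unadjusted p = 0.0616, adjusted p = 0.444). With 4 against 2 arrays, 15.3% of all genes had PH3 wholly above Air. Errfi1 (1.06 ± 0.21) was the listed pathway gene called, in 2 of 6 fits without 1 array. In these lungs the 5 adipocyte markers averaged 6.15 to 6.71 in PH3, above the 5.60 to 5.94 in Air. The 7 endothelial markers (10.95 to 11.07 in PH3, 11.12 to 11.13 in Air) and 2 B cell markers (5.81 to 6.98 in PH3, 7.10 to 7.37 in Air) lay below. The 3 skeletal muscle markers overlapped, at 4.56 to 9.10 in PH3 and 4.95 to 5.20 in Air, with a median change of 1.48. None of these was called, of 8 macrophage markers Cd163 (2.02) was, and their part in the values was not tested. At 24 h and at 1 week 0 members were called, and 0% of all genes were at either time. Unadjusted, 0 members had a p under 0.05 at any time in lung, against 1587 genes at 3 h, 190 at 24 h and 285 at 1 week. Fosb reached 7.16 in PH3 rat 137 at 1 week, where the other PH3 lungs had 4.72 and 5.28 and Air lungs 4.94 to 5.60.

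Whether an effect differed between brain, heart and kidney was tested in a joint fit of the 3 tissues. At 3 h Maff was the 1 of 6 members called, against 0.275% of all genes (F = 11.5, adjusted p = 0.0238). Its change in kidney exceeded that in heart by 1.89 ± 0.42 (adjusted p = 0.0179) and that in brain by 1.57 ± 0.42 (adjusted p = 0.251). The call was lost without PH3 kidney rat 122 (adjusted p = 0.27), Air kidney rat 120 (0.162) or Air kidney rat 97 (0.0534). At 1 h 0 members were called, against 0.238% of all genes, with Fosb at an unadjusted p of 0.000349 and an adjusted p of 0.0943. For Fosb the kidney change exceeded that in brain by 2.27 ± 0.56 (adjusted p = 0.0502 by limma) and that in heart by 1.66 ± 0.56 (adjusted p = 0.258). Neither difference was called. At 6 h 0 members were called, against 0.833% of all genes, and at 24 h 0 were, against 0.0372%. Of the 24 tests of members between tissues, 4 had an unadjusted p under 0.05, against 1364, 1203, 1238 and 765 of all genes at 1, 3, 6 and 24 h.

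The Air rats show how far these genes moved between sampling times without phosphine. Over the Air times 0 of 6 members were called in brain, heart, kidney or lung, against 0.00744%, 0.0595%, 0.0744% and 0% of all genes, and 2 of 24 tests had an unadjusted p under 0.05. They were Junb in brain (unadjusted p = 0.0149, adjusted p = 0.732) and Maff in kidney (unadjusted p = 0.0448, adjusted p = 0.634). Maff in Air kidneys was lower at 3 h than at 1 h by 0.92 ± 0.36 and lower at 24 h than at 1 h by 0.97 ± 0.36. In brain, Air Fosb was lower at 6 h than at 1 h by 1.01 ± 0.38. None of these 3 differences was called.

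The organs of Air rats differed in their levels of single members, as the plot of Air levels shows. Maff averaged 6.97 ± 0.53 in lung (SD, n = 10), 6.89 ± 0.19 in heart (n = 14), 6.26 ± 0.56 in kidney (n = 16), 4.53 ± 0.39 in liver (n = 4) and 4.09 ± 0.20 in brain (n = 16). Lung, heart and kidney arrays overlapped, and all of them lay above every liver and brain array. Fosb was highest in brain, at 5.68 ± 0.62, followed by lung at 5.24 ± 0.44, with heart (4.51 ± 0.47), kidney (4.32 ± 0.28) and liver (4.17 ± 0.52) within their spread of each other. Brain and lung overlapped in Fosb.

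Jun fell into the order lung (10.77 ± 0.38), heart (10.30 ± 0.27), kidney (9.91 ± 0.23), liver (9.44 ± 0.30) and brain (8.85 ± 0.22) by 1 probe set used throughout, each organ overlapping with the next. Junb differed less, with 7.14 ± 0.36 in kidney and 6.48 ± 0.48 in brain as its extremes and overlap between all organs. Fosl2 was highest in kidney, at 5.17 ± 0.41, and lowest in heart, at 3.99 ± 0.28. Fosl1 stayed between 3.81 ± 0.10 in brain and 4.24 ± 0.18 in heart. These Fosl1 signals are low, with median percentiles of 23.7 in brain to 33.1 in heart among the probe sets of an array. That of Fosl2 in heart was 27.7. Whether arrays of different organs were normalised together is not stated in the sources used here, and these levels were given no test.

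**Figure D4:**
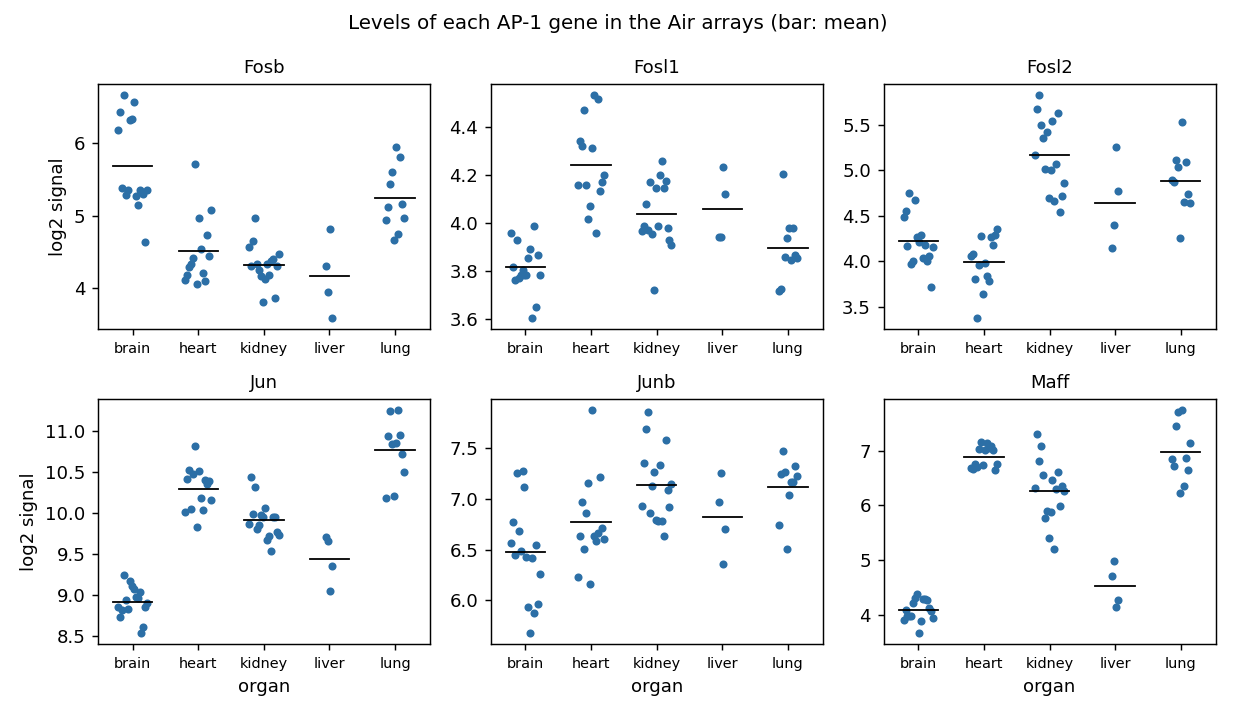
log2 signal of each AP-1 gene on every Air array by organ (horizontal), with the mean as a bar; Jun is shown by its main probe set of each organ, which is another one in brain than elsewhere. Maff is near 7 in lung and heart and near 4 in brain, and Fosl1 is near 4 in every organ.

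Likeness to other genes was described by Pearson's r over all arrays, after subtracting the Air mean of the tissue. Arrays of a rat and of a group share sources, so no test was made. The 3 genes most like Fosb were Nr4a1 (r = 0.73), Srf (0.71) and Atf3 (0.70), and those most like Maff were Sgms2 (0.77), Ell (0.75) and Atf4 (0.74). Jun was most like Ier2 (0.65), Nr4a1 (0.54) and Junb (0.53), and Junb was most like Egr2 (0.70), Egr1 (0.69) and Ier2 (0.67). Fosl2 was most like Bcl2l1 (0.73), Dnajb5 (0.70) and Entrep1 (0.70). For Fosl1 the leading genes Il6, Sele and Hbegf had r of 0.78, 0.77 and 0.75, and without the heart of rat 141 these were 0.15, 0.19 and 0.18. The leading 3 of other members also depended on that array. Without it only Sgms2 stayed among them for Maff, Bcl2l1 for Fosl2, and Egr2 and Ier2 for Junb. Those of Fosb and Jun stayed the same genes. Among the members, Fosb and Maff were the most alike (r = 0.69, and 0.67 without that array).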

How the data were processed

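RNA from whole powdered organs was hybridised to Affymetrix rat arrays after 3' in vitro transcription labelling, per the labels' protocols. The deposited values are log2 signals per probe set, made by the authors with RMA, per the submitters' processing notes, which also name Affymetrix Expression Console and Partek and give no versions. Whether all organs were normalised together is not given in the sources used here. Array medians ran from 5.08 to 5.52, and the number of arrays limits the precision. Of 31139 probe sets, 19068 had 1 symbol, 573 several and 11498 none. The probe set of highest mean signal per gene and tissue gave 13438 genes, and 18989 probe sets matched a RefSeq gene identifier.

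Groups came from the sample titles. Each tissue was fitted on its own with 1 mean per exposure and time in limma 3.58.1 (R 4.3.3, with the package data.table, version 1.17.8), with eBayes and an intensity trend, and p-values were adjusted by Benjamini-Hochberg over all genes of a comparison. F tests compared changes between times, and between brain, heart and kidney in 1 joint fit. All adjusted and unadjusted p-values given are from these moderated limma tests, two-sided for a single change. Of these, only the kidney fit was run on simulated arrays, for changes at 1 h and their difference from 3 h. Those arrays had an equal spread in all groups. The joint fit of 3 tissues and the fits of the other tissues were not simulated. Promoters were searched with Python 3.11.15, and figures drawn with matplotlib 3.10.9.

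The 6 AP-1 genes and the gene lists were chosen with earlier results of these data known. Named were the 6 genes in every comparison, the called genes of each pathway list (at most 4 a list), and the 3 genes most like each member. Single cell type or organ markers, and Fosl2's second probe set, were named after their values were seen. Alternatives were the arrays of the compared groups alone, no trend, array weights, a filter on low signal, all probe sets, the mean of a gene's probe sets, median centring, quantile normalisation, the rat as a block and leaving out each array. The rat numbers pair samples, since tissues with the same number are from the same animal. Deviations from the group mean correlated at a median of 0.0682 between tissues of a rat (n = 86 pairs) and -0.00697 between different rats.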

Additional observations from a re-analysis of the deposited data

Results flagged for a closer look

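Of 168 sets of 4 or more arrays, each a member in a group, 8 held an array far from the others by Dixon's test at the 95% level, which chance gives in about 1 of 20 sets. In heart 6 h after PH3, rat 141 had Fosl1 at 9.25 (others 4.40 to 4.79) and Fosl2 at 5.84 (others 4.24 to 4.33). In kidney 24 h after PH3, Fosl2 was 5.63 in rat 91 (others 4.84 to 4.94), and Maff was 5.93 in rat 70 (others 6.18 to 6.22). In brain 1 h after PH3, Fosb was 7.02 in rat 109 (others 6.18 to 6.24). In Air brains, Fosb was 6.57 in rat 97 at 3 h (others 5.15 to 5.36) and 4.63 in rat 138 at 6 h (others 5.30 to 5.35). In Air heart at 6 h, Junb was 7.22 in rat 132 (others 6.61 to 6.71). The change of Maff differed between kidney, heart and brain at 3 h (adjusted p = 0.0238 by limma), at 1.84 in kidney, -0.05 in heart and 0.27 in brain. No explanation of these values was tested.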

How the results depend on the processing

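Without any other group's arrays in the fit, 0 of the 4 calls remained, at the same changes: Fosb in kidney at 1 h was 2.52 (adjusted p = 0.475), Maff 1.65 in kidney at 1 h (0.328), 1.84 at 3 h (0.634) and 1.09 in heart at 6 h (0.339), and the difference of Maff between tissues at 3 h had an adjusted p of 0.132, leaving 0 members there. Centring arrays on their median left 2 calls, with Maff at 1.64 in kidney at 1 h (0.0634) and 1.09 in heart at 6 h (0.0572). Quantile normalisation put Maff in kidney at 1 h at 1.65 (0.0538). Maff in heart at 6 h was 1.09 with no trend (0.0646), with all probe sets (0.0545) and with their mean (0.0617). Array weights, whose estimation stopped before its tolerance, gave 2 members that differed between tissues and turned the sign of 13 of 96 changes, none of them called. The filter on low signal left 47 of the 96 changes. It removed Fosb in kidney, so the call at 1 h could not be checked under it.

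Leaving out 1 array gave 2 to 5 calls higher and 0 lower in 16 comparisons, the 2 being found without Air kidney rat 97 or PH3 kidney rat 111 at 3 h. It gave 0 to 1 members that differed between times, the 1 without PH3 kidney rat 116 at 1 h, and 0 to 2 between tissues. Changes ran from 1.95 to 3.05 for Fosb in kidney at 1 h, and for Maff from 1.47 to 1.97 in kidney at 1 h, 1.47 to 2.16 at 3 h and 0.50 to 1.36 in heart at 6 h. The adjusted p for Maff between tissues ran from 0.00132 to 0.27. With the rat as a replicate block in a fit of 3 tissues, 5 calls were made, Fosl1 in heart at 6 h being added, and Maff between tissues had an adjusted p of 0.0248. The same fit without the block, chosen after seeing the data, also gave 5, and the block changed no other call. Calls lower, between Air times and between liver times stayed at 0 in every alternative run. The causes of these shifts were not tested, and groups of 2 to 4 arrays limit all of them.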
